A study of Mus musculus with 2 samples.

Results

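The 6 miRNA genes Mir23b, Mir27b and Mir24-1 on chromosome 13 and Mir23a, Mir27a and Mir24-2 on chromosome 8 form a pair of paralogous clusters, each with 1 gene of the miR-23, miR-27 and miR-24 families. They were taken by their identifiers from a table of 2202 annotated miRNA genes, and all 6 reached the detection minimum of 2 counts per 1000000 assigned counts (CPM) in both libraries, as did 426 genes in all. MicroRNA sequencing was done on total RNA of tissue labelled as layer of hippocampus, with no layer named, from male B6CASTF1/J mice aged 14 days. These mice are hybrids from crossing C57BL/6J with CAST/EiJ. There was 1 group with 2 biological replicates and no second condition. The label of each replicate names 3 males, does not say how their tissue was combined and carries the same donor identifier as the other. The spread between the replicates may therefore be in part technical.

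Replicate 1 held 3793934 counts on miRNA genes and replicate 2 held 2554997, which were 27.5% and 35.3% of their reads. A count was worth 0.264 CPM in replicate 1 and 0.391 CPM in replicate 2. Of 9 miRNA genes known to be enriched in neurons, 6 were detected, and all 9 had a summed level of 30094 CPM in replicate 1 and 20913 CPM in replicate 2. Those not detected were Mir124a-1 (3.16 and 1.57 CPM), Mir124a-2 (1.32 and 0.391 CPM) and Mir124a-3 (0 and 1.57 CPM). Reads that fit several places were given to no gene, and their part in these low levels was not tested. The low counts therefore do not show that miR-124 was absent. Mir132 alone had 17266 CPM in replicate 1 and 5947 CPM in replicate 2, and the other 8 genes summed to 12828 and 14966 CPM. All 5 listed genes of endothelial and mural cells were detected (21741 and 13984 CPM). So were all 3 of oligodendrocytes (4060 and 1247 CPM), all 5 of astrocytes (2960 and 1742 CPM) and all 3 of red cells (75.4 and 192 CPM). The 4 of microglia and myeloid cells (1743 and 1640 CPM) and the 2 of choroid plexus (1105 and 807 CPM) were detected too. Genes of a list did not all move alike. In astrocytes, Mir21a had 1451 and 333 CPM, and Mir29a 1282 and 1254 CPM. In red cells, Mir451a had 41.9 and 162 CPM, and Mir486 24.5 and 12.9 CPM. Mir143 (2833 and 3069 CPM) and Mir219a-1 (16.9 and 19.2 CPM) were higher in replicate 2, unlike the sums of their lists. The part of these cell types in the levels below was not tested.

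A miRNA is cut from a hairpin in a longer primary transcript and guides Argonaute proteins to mRNAs that pair with its seed, the bases 2 to 8. Each cluster is transcribed as a unit, so that its 3 hairpins start from the same RNA, and the levels of the mature miRNAs also depend on later processing and decay. In other work in mouse, miR-23a promoted oligodendrocyte differentiation, and miR-23 and miR-27 were tied to the growth of blood vessels. miR-27 is also known as a repressor of adipocyte formation, and miR-24 as a regulator of genes of the cell cycle.

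The mature sequences are shown first because they set which reads can be told apart between the clusters. All 6 genes had at least 1 mature entry in the RefSeq table for GRCm38.p6, and miR-23b-3p was not among its entries. In the 3p arms, capitals mark the seed.
miR-23a-3p: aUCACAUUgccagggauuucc
miR-27b-3p: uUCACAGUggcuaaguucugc
miR-27a-3p: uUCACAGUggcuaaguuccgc
miR-24-3p: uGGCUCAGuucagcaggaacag
The miR-27 arms have the same seed and differ by the substitution U19C from miR-27b-3p to miR-27a-3p, counted from 1 at the 5′ end. A read that starts at the first base must therefore reach base 19 to tell them apart. The same length, 19 bases, is the shortest start of miR-23a-3p that occurs in no other annotated miRNA hairpin. miR-24-3p is spelled the same in Mir24-1 and Mir24-2, so no length of it separates these genes.

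The 5p arms of the Mir24 genes do differ, with capitals from the first base that is not shared.
miR-24-1-5p: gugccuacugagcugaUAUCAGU
miR-24-2-5p: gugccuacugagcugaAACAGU
They share their first 16 bases and differ from base 17 on. In the whole hairpins the longest stretch in common is 28 bases long, set in capitals here, and it holds all of miR-24-3p.
Mir24-1: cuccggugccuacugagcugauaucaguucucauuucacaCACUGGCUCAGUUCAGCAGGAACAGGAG
Mir24-2: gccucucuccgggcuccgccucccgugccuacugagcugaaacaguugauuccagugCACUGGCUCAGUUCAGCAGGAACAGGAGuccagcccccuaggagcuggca
The longest stretch in common was 20 bases for the hairpins of Mir23b and Mir23a, and also 20 bases for those of Mir27b and Mir27a. Reads that map to several places were given to no gene. They made up 26.3% of reads in replicate 1 and 37.5% in replicate 2, and the tables do not say which genes they fit. The levels of all 6 genes are therefore uncertain by the reads they share, and those of the Mir24 genes leave out reads of their common 3p arm that matched both loci.

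The clusters lie in different surroundings on mm10. The Mir23b cluster spans chr13:63300484-63301275, which is 792 bases, inside the protein-coding gene 2010111I01Rik on the same strand. Mir23b (ENSMUSG00000065599.2, chr13:63300484-63300557) was intronic in all 9 host transcripts that span it. Mir27b (ENSMUSG00000065475.2, chr13:63300712-63300784) was intronic in 8 of 9, and Mir24-1 (ENSMUSG00000105904.1, chr13:63301208-63301275) in 7 of 8. In each case the remaining transcript was one annotated for nonsense-mediated decay, in which the hairpin was exonic. An intron of Fancc covers all 3 on the other strand.

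The Mir23a cluster is tighter, with 404 bases at chr8:84208518-84208921. Mir23a (ENSMUSG00000065611.1, chr8:84208518-84208592) and Mir27a (ENSMUSG00000065444.1, chr8:84208672-84208758) overlap no other annotated gene. Mir24-2 (ENSMUSG00000065541.1, chr8:84208815-84208921) shares its last 2 bases with the long non-coding gene Gm26532 on the same strand. On the opposite strand, Mir3074-1 covers Mir24-1 and Mir3074-2 lies within Mir24-2. The miR-23 and miR-27 hairpins are 154 bases apart in the Mir23b cluster and 79 in the Mir23a cluster. The miR-27 and miR-24 hairpins are 423 bases apart in the Mir23b cluster and 56 in the Mir23a cluster.

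Counted levels differed widely within each cluster, with the miR-23 gene highest, and each gene of the Mir23b cluster stood above its copy in the Mir23a cluster in both libraries. Mir23b had 10040 CPM in replicate 1 and 15438 CPM in replicate 2, from 38091 and 39443 counts. It ranked 22nd and 13th of all genes. Mir23a had 3446 and 6053 CPM, from 13075 and 15466 counts, and ranked 51st and 34th. Both miR-23 genes were higher in replicate 2, and the lower value of Mir23b was above the higher one of Mir23a. In RNA from a piece of tissue, fewer cells that carry a miRNA and less of it per cell cannot be told apart.

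The miR-27 genes were lower and went the other way between the libraries. Mir27b had 1093 CPM in replicate 1 and 737 CPM in replicate 2, from 4145 and 1882 counts. Mir27a had 61.2 and 47.0 CPM, from 232 and 120 counts, which left both of its values far under those of Mir27b. Both were higher in replicate 1.

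The miR-24 genes had few counts on their strand. Mir24-1 had 64.6 CPM in replicate 1 and 68.1 CPM in replicate 2, from 245 and 174 counts. Mir24-2 had 22.7 and 35.6 CPM, from 86 and 91 counts. Mir24-1 was above Mir24-2 in both libraries, and its own values lay close together. As miR-24-3p is common to both, these values do not give the amount of miR-24-3p in the tissue.

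**Figure D1:**
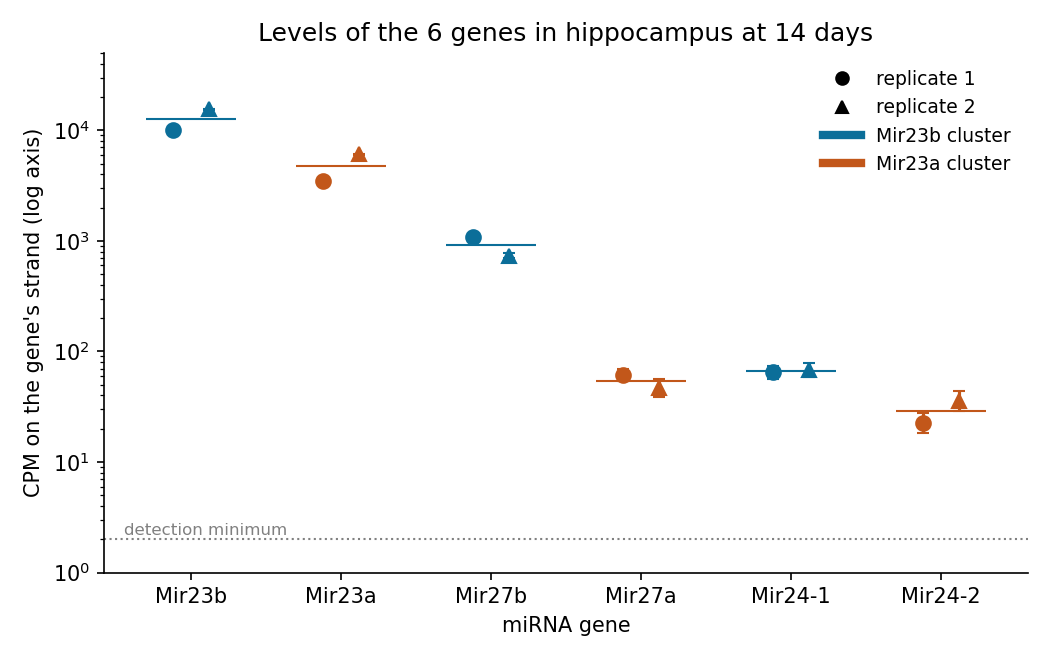
Level of each gene in CPM on a log axis, with circles for replicate 1, triangles for replicate 2, a line at their mean and bars for the 95% exact Poisson interval of the count. Blue marks the Mir23b cluster and orange the Mir23a cluster, the dotted line is the detection minimum of 2 CPM, and each blue gene stands above the orange gene to its right.

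By their means, the genes ran from Mir23b at 12739 ± 3817 CPM through Mir23a at 4750 ± 1843, Mir27b at 915 ± 252, Mir24-1 at 66.3 ± 2.49 and Mir27a at 54.1 ± 10.03 to Mir24-2 at 29.1 ± 9.16 CPM (SD, n = 2 each). The values of the libraries did not overlap between any neighbours in this order. Mir24-1 and Mir27a were the closest, and in replicate 1 their 95% exact Poisson intervals, 56.7 to 73.2 CPM for Mir24-1 and 53.5 to 69.5 CPM for Mir27a, did overlap. A small RNA read covers about a whole mature miRNA, so counts were not divided by length. Per 100 bases of hairpin, Mir24-1 and Mir27a had 97.6 and 62.1 CPM, and the order of the 6 genes stayed as it was. All intervals here reflect counting error alone: the reads were amplified and carry no molecular identifiers known from the labels, so they cannot be taken as separate molecules.

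Summed, the Mir23b cluster had 11197 CPM in replicate 1 and 16242 CPM in replicate 2, and the Mir23a cluster had 3530 and 6136 CPM. The Mir23b cluster thus held 76.03% of the counts of both in replicate 1, with a 95% Wilson interval of 75.7 to 76.4, against 72.6% in replicate 2 (72.2 to 72.9). The mean share was 74.3% ± 2.44 (SD, n = 2). Both clusters together held 1.47% of the assigned counts in replicate 1 and 2.24% in replicate 2. Of all reads, counted or not, they held 0.405% and 0.790%.

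The miR-23 gene made up most of each sum. In the Mir23b cluster it held 89.7% of counts in replicate 1, with a 95% Wilson interval of 89.4 to 89.95, against 95.05% in replicate 2 (94.8 to 95.3). Mir27b held 9.76% and 4.54%, and Mir24-1 0.577% and 0.419%. In the Mir23a cluster Mir23a held 97.6% in replicate 1 (97.4 to 97.9) and 98.7% in replicate 2 (98.5 to 98.8). Mir27a held 1.73% and 0.765%, and Mir24-2 0.642% and 0.580%. The miR-27 gene was thus a larger part of the Mir23b cluster than of the Mir23a cluster in each library.

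The next comparison set each gene of the Mir23b cluster against its copy in the Mir23a cluster within the same library, where no scaling enters. With 2 libraries an exact permutation test cannot reach 0.05, so values are given with no p. The imbalance was greatest for miR-27. Mir27b had 17.9 times the counts of Mir27a in replicate 1 (95% Wald interval of the log ratio, back-transformed, 15.7 to 20.4) and 15.7 times in replicate 2 (13.04 to 18.9). Mir23b had 2.91 times the counts of Mir23a in replicate 1 (2.86 to 2.97) and 2.55 times in replicate 2 (2.503 to 2.598). Mir24-1 had 2.85 times the counts of Mir24-2 in replicate 1 (2.23 to 3.64) and 1.91 times in replicate 2 (1.48 to 2.46). The counts of this pair leave out reads of miR-24-3p that matched both loci. The intervals of the miR-27 pair lay above those of the other pairs in both libraries, and those of the miR-23 and miR-24 pairs overlapped in replicate 1.

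On the log2(CPM + 0.5) scale, the mean differences were 4.05 ± 0.14 for Mir27b over Mir27a, 1.45 ± 0.14 for Mir23b over Mir23a and 1.21 ± 0.40 for Mir24-1 over Mir24-2 (SD, n = 2 each). Divided by hairpin length, the log2 differences were 4.31, 1.47 and 1.86 for these pairs. As a share of the pair, Mir27b held 94.7% of counts in replicate 1, with a 95% Wilson interval of 94.0 to 95.3, against 94.01% in replicate 2 (92.9 to 94.96). Mir23b held 74.4% (74.1 to 74.8) and 71.8% (71.5 to 72.2). Mir24-1 held 74.02% (69.04 to 78.4) and 65.7% (59.8 to 71.1).

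**Figure D2:**
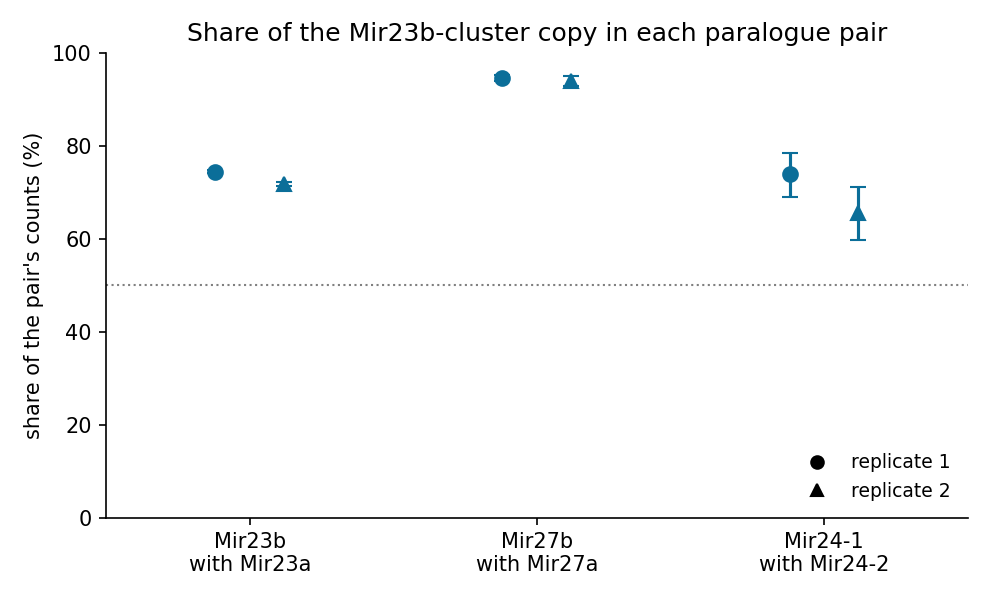
Share of a pair's counts held by the copy of the Mir23b cluster, in percent, with circles for replicate 1, triangles for replicate 2 and bars for the 95% Wilson interval. The dotted line marks equal counts of both copies, and all shares lie above it, with Mir27b highest at 94.7% and 94.01%.

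Within a cluster, the ratio of the miR-23 to the miR-27 gene differed between the libraries by nearly the same factor at both loci. Mir23b had 9.19 times the counts of Mir27b in replicate 1 (95% Wald interval 8.90 to 9.49) and 20.96 times in replicate 2 (20.01 to 21.95). Mir23a had 56.4 times the counts of Mir27a in replicate 1 (49.5 to 64.2) and 129 times in replicate 2 (108 to 154). The ratio in replicate 1 was 0.438 of that in replicate 2 for the Mir23b cluster (0.414 to 0.464) and 0.437 of it for the Mir23a cluster (0.350 to 0.546). Both intervals leave out 1, for counting error only. This relation was looked for after the levels had been seen, and the other ratios within a cluster were less alike between the loci. For the miR-23 over the miR-24 gene, the ratio in replicate 1 was 0.686 of that in replicate 2 in the Mir23b cluster (0.564 to 0.833) and 0.895 of it in the Mir23a cluster (0.666 to 1.20). For the miR-27 over the miR-24 gene it was 1.56 times that in replicate 2 in the Mir23b cluster (1.28 to 1.91) and 2.05 times in the Mir23a cluster (1.42 to 2.96).

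The ratio between the copies of a family moved by smaller factors than that of miR-23 to miR-27, though Mir23a over Mir24-2 moved less still. For Mir23b over Mir23a the ratio in replicate 1 was 1.14 times that in replicate 2 (1.11 to 1.17), for Mir27b over Mir27a 1.14 times (0.908 to 1.43), and for Mir24-1 over Mir24-2 1.49 times (1.05 to 2.12). The likeness of the miR-23 and miR-27 factors follows by arithmetic from the like factors at both loci above, and is not a separate observation. The intervals leave out 1 for the miR-23 and miR-24 copies and include it for the miR-27 copies. The part of reads shared between copies in these ratios was not tested.

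The libraries were then compared gene by gene, by an exact binomial test, two-sided, that expects counts to split as the library totals do. Its p-values were adjusted by the Benjamini-Hochberg method over the 507 genes with at least 10 counts in sum. It sets one library against the other, says nothing of conditions, and allows for counting error alone. Unmapped reads were 41.3% of reads in replicate 1 and 20.7% in replicate 2, and their part in the differences was not tested. It called 52.1% of all tested genes, 25.2% as higher in replicate 1 and 26.8% as higher in replicate 2. Of the 6 genes it called 5, of which 2 were higher in replicate 1 and 3 in replicate 2. Against this background the count says little about the genes themselves. The median log2 ratio of replicate 1 over replicate 2 was -0.35 for the 6 genes and 0.02 for all tested genes, and the median of the absolute ratio was 0.59 and 0.47.

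Higher in replicate 1 were Mir27b, at a log2 ratio of 0.57 (exact binomial test, adjusted p = 9.17e-47), and Mir27a at 0.38 (adjusted p = 0.0383 by the same exact test). The Mir27a call was lost when genes with low counts were not filtered out (adjusted p = 0.0573 in the exact binomial test) and when the totals of all reads set the scale (log2 ratio 0.02, adjusted p = 0.950). Higher in replicate 2 were Mir23b at -0.62 and Mir23a at -0.81, with exact binomial p-values too small to be held as a number, and Mir24-2 at -0.64 (adjusted p = 0.00617 in that exact test). Mir24-1 had a log2 ratio of -0.08 and was not called (adjusted p = 0.713, exact binomial test). With the spread between replicates set to edgeR's common dispersion, a coefficient of variation of 0.376 beyond counting error, a negative binomial exact test called 0 of the 6 genes and 0.394% of all tested genes. Its unadjusted p was under 0.05 for 0 of the 6 genes and for 23 of the 507. As that dispersion was estimated from the same libraries, the test does not show that the genes were alike in them.

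**Figure D3:**
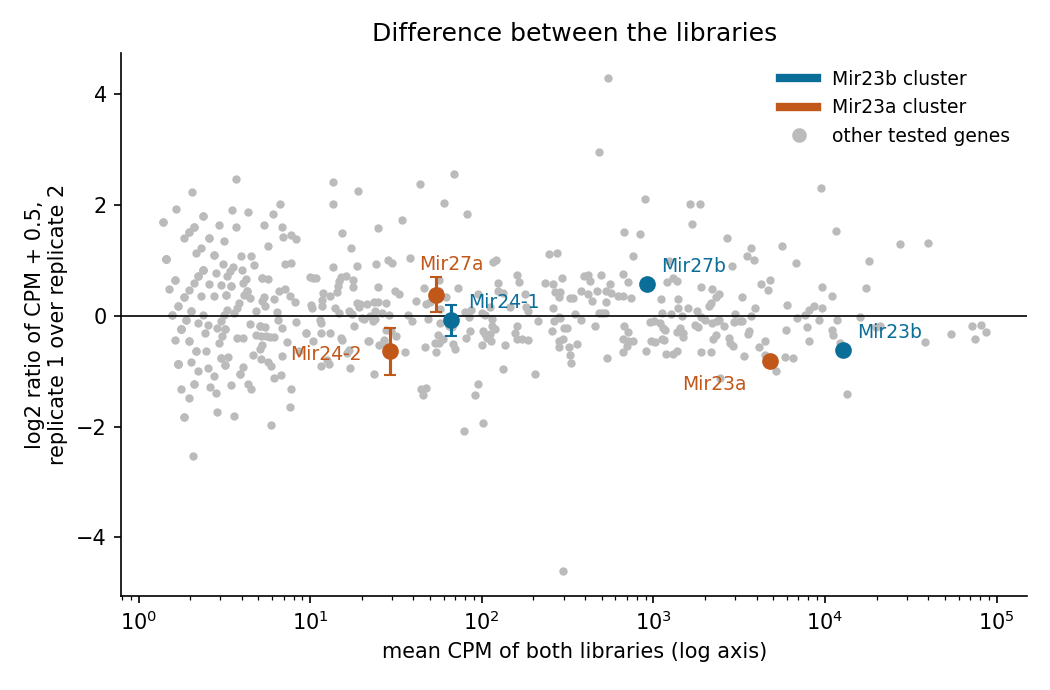
Log2 ratio of CPM + 0.5, replicate 1 over replicate 2, against the mean CPM on a log axis, with grey points for the other tested genes and bars for the 95% counting interval of the 6 genes. The miR-27 genes lie above 0 at 0.57 and 0.38 and the miR-23 genes below it at -0.62 and -0.81.

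A list of other miRNA genes in paralogous clusters was used to see whether family copies or neighbours moved more alike. It held 32 genes and was drawn up with earlier results of these data known, and the differences are a description with no test. Among the 13 listed pairs of one family at separate loci, the log2 ratios of the libraries differed by a median of 0.27, with a range of 0.04 to 2.56. Among 8 pairs of neighbours at one locus the median difference was 1.21, with a range of 0.21 to 1.48. Listed neighbours within the Mir29, Mir30, Mir181 and Mir221 loci were not among these pairs, so the median does not cover them. Of those left out, Mir181a-2 and Mir181b-2 had log2 ratios of -0.46 and -0.48, and Mir29c and Mir29b-2 had 0.42 and 0.40. Mir29a and Mir29b-1 had 0.03 and 1.59, and Mir221 and Mir222 had 1.08 and 2.01. Not all of the 8 pairs were of different families, as miR-15 and miR-16 share a seed and so do miR-132 and miR-212. Mir132 and Mir212 differed by 1.48, Mir15a and Mir16-1 by 1.25, and Mir15b and Mir16-2 by 0.83. For the clusters of Mir23b and Mir23a the same medians were 0.19 over the 3 pairs of copies (0.19 to 0.56) and 0.83 over the 6 pairs of neighbours (0.17 to 1.19). In the miR-15 and miR-16 clusters, Mir15a and Mir15b had log2 ratios of 0.74 and 0.42, and Mir16-1 and Mir16-2 had -0.51 and -0.42. The largest difference between copies, 2.56, was that of Mir365-2 and Mir365-1. These genes had few counts, 3 and 7 for Mir365-2 and 13 and 3 for Mir365-1 in replicates 1 and 2, and they also stand in 2 of the 8 pairs of neighbours. Without the pairs that hold them, an alternative chosen after seeing the data, the median was 0.26 over 12 pairs of copies and 1.04 over 6 pairs of neighbours. Of those neighbours, the pairs from different families were Mir143 and Mir145a at 0.21, Mir99a and Mirlet7c-1 at 0.22, and Mir99b and Mirlet7e at 1.39. The higher median of the listed neighbours thus depended on which pairs were kept.

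Single pairs went against the order of the medians as well. Of the 13 pairs of copies, 4 differed by more than 0.5, a limit set after the values were seen. Besides the Mir365 genes these were Mir29b-2 and Mir29b-1 at 1.18, Mir99b and Mir99a at 0.99, and Mirlet7e and Mirlet7c-1 at 0.62. Of the 8 pairs of neighbours, 2 differed by less than 0.5, Mir143 and Mir145a by 0.21 and Mir99a and Mirlet7c-1 by 0.22. In level, the copies of a listed family were a median of 2.57 log2 units apart, with a range of 0.24 to 6.67. Mir23b and Mir23a at 1.45, Mir27b and Mir27a at 4.05, and Mir24-1 and Mir24-2 at 1.21 lay within it. Pairs share genes and libraries, and copies share sequence, so they are not independent.

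**Figure D4:**
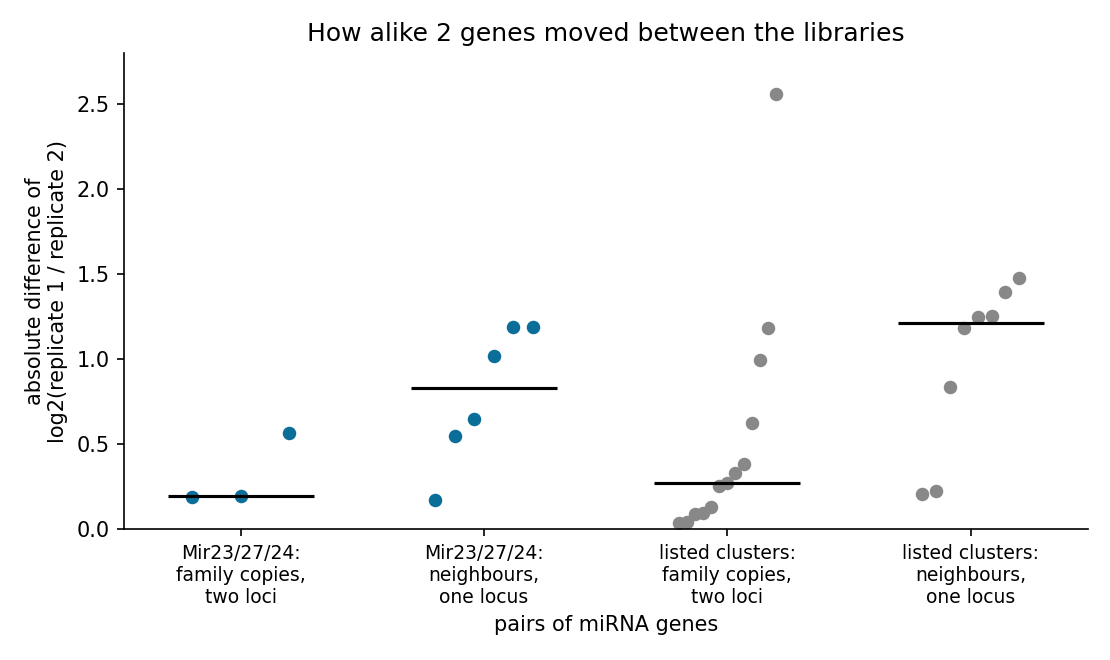
Absolute difference of 2 genes in the log2 ratio of the libraries (CPM + 0.5), with a point per pair of genes and a line at the median. The blue pairs are those of the 6 genes, with medians of 0.19 for family copies and 0.83 for neighbours, and the grey pairs are those of the listed clusters, with medians of 0.27 and 1.21. Neighbours within the Mir29, Mir30, Mir181 and Mir221 loci are not drawn.

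Mir3074-1 and Mir3074-2, annotated on the strand opposite the Mir24 genes, differed between the loci. Mir3074-1, at Mir24-1, had 102 counts in replicate 1 and 83 in replicate 2, or 26.9 and 32.5 CPM. Mir3074-2, at Mir24-2, had 2 and 0 counts, or 0.527 and 0 CPM, where 0 counts in replicate 2 allow up to 1.17 CPM. The antisense gene thus reached 2 CPM at the Mir23b cluster and not at the Mir23a cluster. Its arm miR-3074-5p is spelled the same at both loci, so reads of that arm that matched both are not in these counts. In the count column that ignores strand, all 4 of these overlapping genes had 0 counts, because reads there were ambiguous. Mir23b, Mir23a, Mir27b and Mir27a kept the same counts in it.

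Genes that share a mature arm with another gene were described as a class, since the Mir24 genes are among them. Of the 2202 genes, 1018 had a mature sequence in the RefSeq table. In 57 genes some arms but not all were spelled as in another gene, and 68.4% of these were detected, with a median of 84.05 CPM among those detected. In 926 genes no listed arm was shared, with 36.3% detected at a median of 106 CPM. In 35 genes all listed arms were shared, with 17.1% detected. Arms missing from the RefSeq table could not be compared. Mir24-1 at 66.3 CPM and Mir24-2 at 29.1 CPM, which share some arms, were under the detected median of their class. Mir23b, Mir23a and Mir27b were above that of genes with no shared arm, and Mir27a was below it.

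By seed, the miR-27 arms stand alone in the table, as does miR-23a-3p outside its own family. The seed of miR-24-3p occurs in the arms of Mir5124b, Mir6369, Mir6410 and Mir6413, which were at 0 counts in both libraries. Bases 3 to 8 of miR-27a-3p occur as bases 2 to 7 of miR-128-3p, a neuronal miRNA. Mir128-1 had 4364 CPM in replicate 1 and 7285 CPM in replicate 2, and Mir128-2 had 1481 and 2323 CPM. Both were higher in replicate 2, unlike Mir27b and Mir27a.

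The genes nearest to each of the 6 were taken by the Euclidean distance of log2(CPM + 0.5) over the 2 libraries, which describes level only. Nearest to Mir23b were Mir100, at a distance of 0.116, and Mir191 at 0.302. Nearest to Mir23a were Mir130a at 0.117 and Mir26b at 0.197. Nearest to Mir27b were Mir672 at 0.436 and Mir7689 at 0.461. Mir27a lay by Mir503 at 0.104 and Mir142 at 0.167, Mir24-1 by Mir148b at 0.0899 and Mir203 at 0.103, and Mir24-2 by Mir3078 at 0.0525 and Mir344b at 0.0713. No copy of a pair was among the nearest genes of the other.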

How the data were processed

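Small RNA libraries of 2 samples were analysed. The authors deposited raw counts of reads per miRNA gene, on mm10 with GENCODE M21 per the accompanying text. No source used here names the aligner, counter or trimming. The 3 count columns have no header; the one for reads on the strand of the gene was used. The 4 rows of reads given to no gene, 72.5% of reads in replicate 1 and 64.7% in replicate 2, stayed out of totals and tests. CPM were computed from the assigned counts.

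The members and lists were chosen with earlier results of these data known. The text names the 6 genes, the antisense Mir3074 genes, genes of the same seed, the 2 genes nearest each member and listed genes. All 2202 identifiers matched GENCODE M21, by whose positions the listed Mir193 and Mir365 genes were paired as neighbours. Since 1 library on each side leaves no residual degrees of freedom for edgeR's quasi-likelihood test, an exact binomial test was used. It was run on simulated data with counting error alone, so that check does not cover spread between replicates. Tools were Python 3.11.15, scipy 1.17.1, pandas 2.3.3, numpy 2.4.6, matplotlib 3.10.9, R 4.3.3, edgeR 4.0.16 and DESeq2 1.42.0 (size factors only). Alternatives were other totals, filters, pseudocounts, hairpin lengths, the column that ignores strand and leaving out a library.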

Additional observations from a re-analysis of the deposited data

Results flagged for a closer look

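The column for the strand opposite the gene, which no comparison of levels used, held reads at Mir24-1. There were 102 in replicate 1 and 83 in replicate 2, above the floor of 3 counts set for a count of 0. They are the reads counted for Mir3074-1 on its own strand.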

How the results depend on the processing

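No result turned round in direction under any alternative tried. Without replicate 1 or replicate 2 the levels ran from 10040 to 15438 CPM for Mir23b, 3446 to 6053 for Mir23a, 737 to 1093 for Mir27b, 47.0 to 61.2 for Mir27a, 64.6 to 68.1 for Mir24-1 and 22.7 to 35.6 for Mir24-2. The log2 ratios of the pairs then ran from 1.35 to 1.54 for miR-23, 3.96 to 4.15 for miR-27 and 0.93 to 1.49 for miR-24, and the share of the Mir23b cluster from 72.6% to 76.03%. Per 1000000 of all reads, the mean levels were 4105 for Mir23b, 1542 for Mir23a, 280.3 for Mir27b, 16.7 for Mir27a, 20.9 for Mir24-1 and 9.40 for Mir24-2, since more reads stand in the denominator. In the column that ignores strand both Mir24 genes were at 0 CPM, so that their ratio had no value there. Divided by hairpin length, the log2 ratios moved to 4.31 for miR-27 and 1.86 for miR-24.

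Between the libraries, the negative binomial test called 0 of the 6 genes, against 5 in the exact binomial test. The log2 ratios that lost their call were those of Mir23b (-0.62), Mir23a (-0.81), Mir27b (0.57), Mir27a (0.38) and Mir24-2 (-0.64), each with an adjusted p of 1 in edgeR's exact test. Totals of all reads moved the median log2 ratio of all tested genes by -0.32. On that scale Mir27a stood at 0.021 and was not called, and Mir24-1 at -0.43 was called (adjusted p = 0.00605, exact binomial test). Without a filter on low counts Mir27a stayed at 0.38 and lost its call. The number of the 6 genes called was within 1.5 times the main count under every alternative except the negative binomial test. Outside that test, the share called of all tested genes ran from 33.1% without a filter to 73.2% at a mean of 10 CPM or more. In the column that ignores strand, 50.9% of all tested genes were called. Only 4 of the 6 genes could be tested there, and all 4 were called. Counting error limits the Mir24 genes and Mir27a most.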
